A study of Mus musculus with 4 samples.

Results

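Distal Pol II regions found in old WT Cre and in no young EC-K4KO library numbered 3773, and they are described here by their DNA sequence, position and nearest genes. They were selected on the deposited peak lists of chromatin immunoprecipitation sequencing (ChIP-seq) for RNA polymerase II (Pol II). A member is a place where the peaks of the 2 old WT Cre libraries overlapped by at least 1 bp (joined into 1 region), on chromosomes 1 to 19 and X of mm10, more than 3000 bp from every annotated transcription start site (TSS) and overlapping no peak of either young EC-K4KO library. The old WT Cre pair gave 10079 regions on these chromosomes, of which 7807 were distal. Members were 3773 of these 7807 (48.3%), and the other 4034 overlapped a peak of 1 (2448) or 2 (1586) young EC-K4KO libraries. The 4 lists of the series held 389754 peaks in all. Presence and absence of peaks chose the members, so the counts of these sets are a description and were not tested.

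The libraries came from endothelial cells (ECs) sorted from mouse brain. The labels give 2 libraries as genotype CdH5CRE, age group old, which the study calls WT Cre, and 2 as genotype ECK4KO, age group young. CdH5CRE is a tamoxifen-inducible Cre driven by the Cdh5 promoter, which is active in ECs, and EC-K4KO mice carry it with floxed Klf4, the gene of the transcription factor KLF4. Both genotypes share the Cre and, by the study's description, the induction at 8 wk of age. Its cohorts were 20 to 23 mo for old and 4 to 6 mo for young. Genotype and age differ together between the groups and cannot be told apart, and the labels do not say whether 2 libraries of a group came from separate mice. Depth was 65734178 fragments for replicate 1 of old WT Cre and 27455452 for its replicate 2. For young EC-K4KO it was 35227929 (replicate 1) and 22705175 (replicate 2). Taken in this order, the lists held 78851, 39674, 35638 and 235591 peaks. The peak of highest pileup, at the same place on chromosome 2 in every list, held 14.6 and 15.3% of all fragments over its summit in the old WT Cre pair and 3.36 and 1.73% in the young pair. Its part in values per library size was not tested. Promoters, within 1500 bp of a TSS, carried peaks at 10, 10, 2 and 19 of 30 brain endothelial marker genes. Cdh5 had one in 3 libraries, and Pecam1 and Tie1 had none in any. Of 18 neuronal genes 4, 3, 4 and 14 had one. Of all protein-coding genes 25.8, 24.7, 10.7 and 68.1% did.

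Pol II gathers at promoters and along transcribed genes, and it is also found at enhancers, which lie far from any TSS and carry short, mostly unstable transcripts. Introns and the DNA between genes hold most of the repeats of the mouse genome. Among these are microsatellites, runs of a short unit repeated head to tail. The CA repeat, which reads as TG on the other strand, is the commonest dinucleotide microsatellite in mammals.

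The sequences of the strongest members show what many members share. The 3 windows below, each 200 bp on the summit of old WT Cre replicate 1 (plus strand, mm10), belong to members with ranks 1, 2 and 7 by the smaller −log10 q of the 2 libraries. Capitals mark unbroken runs of at least 8 bp of CA or its complement TG.

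Calb2 region, chr8:110136514-110136713: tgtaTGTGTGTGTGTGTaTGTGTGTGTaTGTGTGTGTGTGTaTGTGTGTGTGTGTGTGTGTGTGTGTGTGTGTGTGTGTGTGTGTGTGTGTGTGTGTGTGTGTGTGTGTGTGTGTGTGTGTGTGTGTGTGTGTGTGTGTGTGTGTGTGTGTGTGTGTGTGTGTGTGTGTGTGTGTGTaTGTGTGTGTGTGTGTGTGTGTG

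Kif21a intron, chr15:90943189-90943388: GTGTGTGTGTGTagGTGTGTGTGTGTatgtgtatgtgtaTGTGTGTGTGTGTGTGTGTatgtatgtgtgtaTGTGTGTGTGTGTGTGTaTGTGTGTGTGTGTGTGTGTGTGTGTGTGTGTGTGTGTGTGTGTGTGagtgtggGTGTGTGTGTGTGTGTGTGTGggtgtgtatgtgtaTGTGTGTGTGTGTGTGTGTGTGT

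Tmem132c region, chr5:126920311-126920510: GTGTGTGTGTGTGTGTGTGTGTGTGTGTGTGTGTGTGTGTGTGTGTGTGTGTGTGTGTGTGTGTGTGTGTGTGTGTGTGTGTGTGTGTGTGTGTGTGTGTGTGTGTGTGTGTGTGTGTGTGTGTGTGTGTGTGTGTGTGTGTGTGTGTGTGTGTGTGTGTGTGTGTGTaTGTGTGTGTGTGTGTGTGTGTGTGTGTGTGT

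Nearly all of the first and the last of these windows lies in such runs. Next come 2 windows without CA runs. The member nearest Cdh6 has rank 4 and is built of another simple repeat, whose unit TCTA is in capitals where it runs for 4 copies or more. The member in Atrnl1 has rank 6 and a GC content of 60%, with a recurring GAGGAGGT in capitals.

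Cdh6 region, chr15:14524373-14524572: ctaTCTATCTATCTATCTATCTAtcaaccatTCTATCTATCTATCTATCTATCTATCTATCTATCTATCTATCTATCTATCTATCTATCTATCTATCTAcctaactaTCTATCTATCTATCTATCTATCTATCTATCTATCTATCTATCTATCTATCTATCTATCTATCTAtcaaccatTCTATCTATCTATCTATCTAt

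Atrnl1 intron, chr19:57926491-57926690: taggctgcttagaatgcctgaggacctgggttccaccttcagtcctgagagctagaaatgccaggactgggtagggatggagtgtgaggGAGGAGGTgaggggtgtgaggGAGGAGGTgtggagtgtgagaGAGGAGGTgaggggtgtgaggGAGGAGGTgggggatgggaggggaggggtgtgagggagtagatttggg

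The last 3 windows lie in genes that ECs use. Ptprb encodes the endothelial phosphatase VE-PTP and Erg an ETS transcription factor of ECs. Their windows hold CA or TG runs broken by other bases, with runs of at least 8 bp in capitals. Tjp1 encodes the tight junction protein ZO-1. Its window holds no such run, and the capitals there mark CTTCC, the complement of GGAAG, the core that ETS factors bind.

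Ptprb intron, chr10:116289486-116289685: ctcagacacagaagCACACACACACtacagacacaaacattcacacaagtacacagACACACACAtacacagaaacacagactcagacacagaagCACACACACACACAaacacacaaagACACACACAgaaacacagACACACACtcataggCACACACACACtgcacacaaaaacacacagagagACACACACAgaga

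Erg intron, chr16:95472374-95472573: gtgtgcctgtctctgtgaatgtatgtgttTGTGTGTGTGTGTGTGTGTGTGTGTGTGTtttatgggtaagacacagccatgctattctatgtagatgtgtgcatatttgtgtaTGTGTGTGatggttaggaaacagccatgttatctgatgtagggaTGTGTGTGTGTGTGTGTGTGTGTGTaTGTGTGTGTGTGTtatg

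Tjp1 intron, chr7:65466361-65466560: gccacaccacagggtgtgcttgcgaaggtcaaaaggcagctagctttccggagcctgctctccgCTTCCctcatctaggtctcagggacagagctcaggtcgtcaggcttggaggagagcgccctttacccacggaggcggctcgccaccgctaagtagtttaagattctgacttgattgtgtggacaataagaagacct

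CA repeats were more frequent in the members than in the other sets of distal regions compared. A window of 200 bp on the summit of a peak was called CA-rich when at least 50% of its dinucleotide steps were CA or AC, or on the other strand TG or GT. This measure was chosen after the sequences had been seen. In old WT Cre replicate 1, 1636 of the 3777 peaks in members were CA-rich, 43.3% (95% exact Clopper-Pearson interval 41.7 to 44.9%). In replicate 2 the count was 1674 of 3791, 44.2% (42.6 to 45.8%). Where the old WT Cre pair overlapped 1 young EC-K4KO library, the shares were 9.25 and 9.30%, and where it overlapped both they were 5.17 and 5.07%. Young-only distal regions, called in each young EC-K4KO library and absent from the old WT Cre lists, had 1 CA-rich window in 4192 peaks of replicate 1 and 1 in 4196 of replicate 2. Of 44798 windows placed every 50000 bp across the genome, away from any TSS, 88 were CA-rich, 0.196%. The intervals cover counting error alone.

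**Figure D1:**
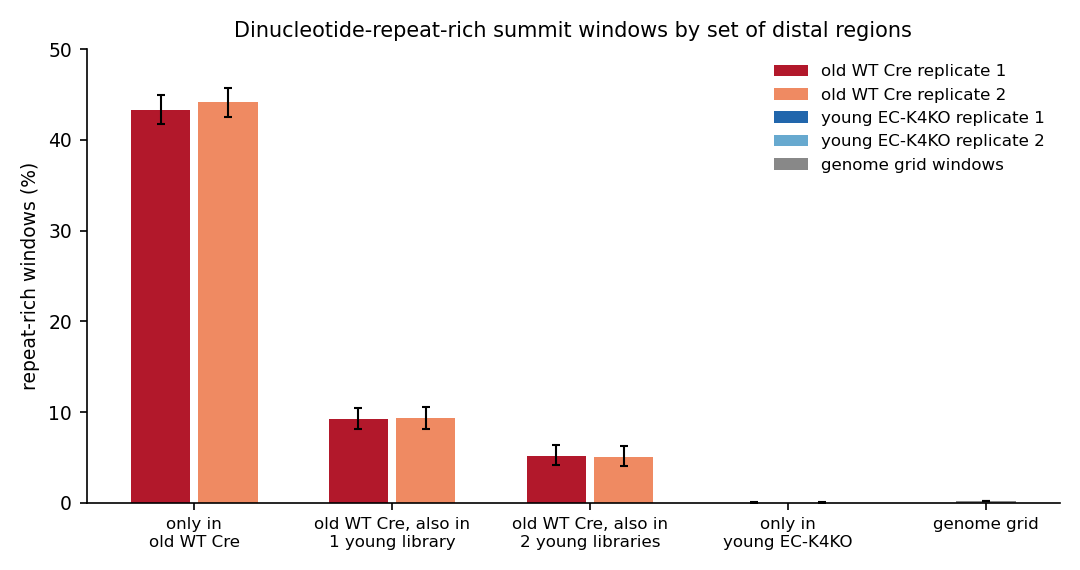
Share of 200 bp summit windows that were CA-rich (y axis, %), by set of distal regions (x axis) and library, with exact 95% intervals as error bars for counting error. The members reach 43.3 and 44.2% in the 2 old WT Cre libraries, old WT Cre regions shared with young libraries stay at 5.07 to 9.30%, and regions found in young EC-K4KO alone hold 1 such window in each library.

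Within each old WT Cre library the CA-rich share of members exceeded that of all shared regions, by a mean of 36.1 percentage points (SD 0.613, n = 2 libraries). An exact sign-flip permutation test over the 2 libraries gave two-sided p = 0.5, the smallest it allows. Members exceeded the regions found in young EC-K4KO alone by 43.7 points (exact permutation test of 2 libraries against 2, two-sided p = 0.33, again the smallest possible). Each set consists of places where the peaks of both its libraries overlap, so its 2 values were read over nearly the same DNA. The small SDs here and for GC content, repeated words and intragenic share follow from that rule, and these tests do not measure the spread between libraries. With 1 old WT Cre library left out, the difference from young-only regions was 14.1 points (without replicate 1) or 8.18 points (without replicate 2), and that from shared regions 10.9 or 5.55 points. Without young EC-K4KO replicate 2 the difference from shared regions was 23.2 points. The distribution of CA content in members had a broad second hump, and the median window of the members held 30.7 and 33.2% CA steps in replicates 1 and 2. A window was CA-rich in both libraries in 1544 members (40.9%) and in at least 1 library in 1751 (46.4%).

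**Figure D2:**
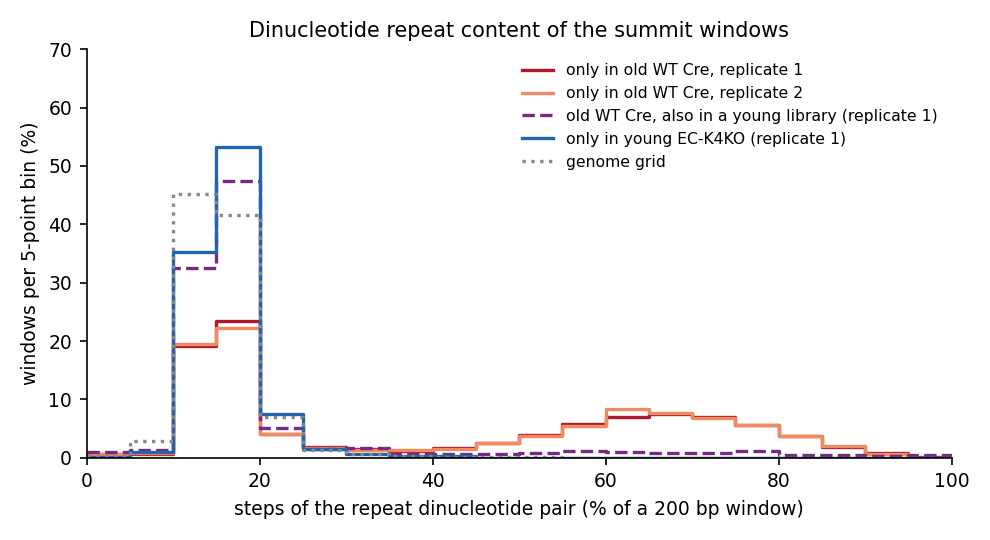
Share of windows (y axis, %) against the share of their dinucleotide steps that are CA or AC, or TG or GT on the other strand (x axis, bins of 5 percentage points), for members in each old WT Cre library and for comparison sets. Members form a second hump above 50% that holds 43.3 and 44.2% of their windows, and 0.196% of the genome grid lies there.

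Whole lists, which include the members, differed in the same direction. Member peaks were 1636 of the 4332 CA-rich distal peaks of old WT Cre replicate 1 and 1674 of 3079 in its replicate 2. The lists without members were not compared. CA-rich windows made up 6.78 and 10.3% of all distal peaks in the old WT Cre pair, against 0.662 and 0.281% in the young EC-K4KO pair (difference of means 8.07 percentage points, SD 2.49 and 0.269 with n = 2 each, exact permutation test, p = 0.33). The young library with the most peaks, replicate 2, had the lowest share. The CA-rich share rose with the strength of the call in both old WT Cre libraries. In replicate 1 it was 14.1% in the quintile of distal peaks with the smallest q-values and 2.84% in that with the largest, and in replicate 2 it was 16.4 and 6.08%. Among members, 65.4% of the top quintile and 22.2% of the bottom quintile were CA-rich in replicate 1, and 56.9 and 33.6% in replicate 2. The share also rose over all distal peaks of young EC-K4KO replicate 1, with 1.51% in the top quintile and 0.377% in the bottom one. In young EC-K4KO replicate 2 these were 0.303 and 0.232%.

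CA-rich peaks also recurred between the old WT Cre libraries more often than other peaks. Of the 4332 CA-rich distal peaks of replicate 1, 44.9% fell in a region of both libraries, against 9.89% of the 59557 others. In replicate 2 the shares were 64.5% of 3079 and 22.0% of 26829. Once in both libraries, 84.1 and 84.3% of CA-rich peaks met the rule for members, compared with 36.3 and 35.9% of the rest. Without the demand for both libraries the share was lower. Among distal peaks of a single old WT Cre library that overlapped no young peak it was 8.26% for replicate 1 and 14.2% for replicate 2.

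Most CA repeats of the genome lay under no peak. The assembly holds 210495 unbroken CA or TG tracts of 24 bp or more that are distal by the same rule. Peaks overlapped 5.16 and 2.70% of them in the old WT Cre pair, and 0.317 and 1.59% in the young EC-K4KO pair (exact permutation test, p = 0.33). Members overlapped 2983 tracts, 1.42%. Young EC-K4KO replicate 2 had the longest list and still overlapped fewer tracts than either old WT Cre library. For tracts of the GA dinucleotide the 4 shares were 1.35, 0.355, 0.124 and 0.872%, and the groups overlapped (exact permutation test, p = 0.667). For tracts of the TA dinucleotide they lay between 0.00679 and 0.0679% (exact permutation test, p = 1).

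**Figure D3:**
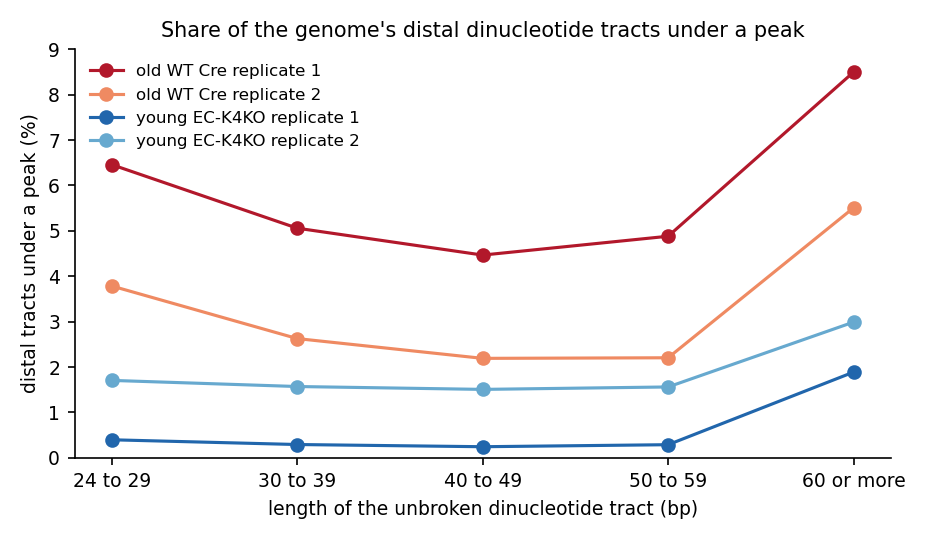
Share of the genome's distal CA or TG tracts that lie under a peak (y axis, %) by tract length (x axis, bp), 1 line per library, without error bars. Both old WT Cre lines lie above both young EC-K4KO lines in all 5 length bins, from 3.78 and 6.46% against 0.398 and 1.71% at 24 to 29 bp.

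GC content was lower in members than in shared regions, and its difference from young-only regions changed direction with 1 library left out. The median over summit windows was 49.5% in both old WT Cre libraries (middle 50% of windows, 45.5 to 55% in replicate 1). Shared distal regions had medians of 59 and 60%, a difference of −10 points (SD 0.707, n = 2, exact sign-flip permutation test, p = 0.5). Regions of young EC-K4KO alone had 54.5% in both libraries, 5 points above the members (exact permutation test, p = 0.33). With 1 library left out, the difference from shared regions was −3.75 points without old WT Cre replicate 2, −6.5 without old WT Cre replicate 1 and −6 without young EC-K4KO replicate 2. The difference from young-only regions was −2.5, −3.5 and −1.5 points without old WT Cre replicate 1, old WT Cre replicate 2 and young EC-K4KO replicate 1, and 0.75 points without young EC-K4KO replicate 2. The genome grid had 41.5%. The median of CA-rich members was 46% in each library, and that of the other members 54 and 54.5%. With CA-rich windows left out of both sets, the difference from young EC-K4KO alone was −0.25 points (exact permutation test, p = 1), and that from shared regions was −6 points. Members held a median of 2 CpG dinucleotides per window in both libraries, and shared regions 8 and 9.

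**Figure D4:**
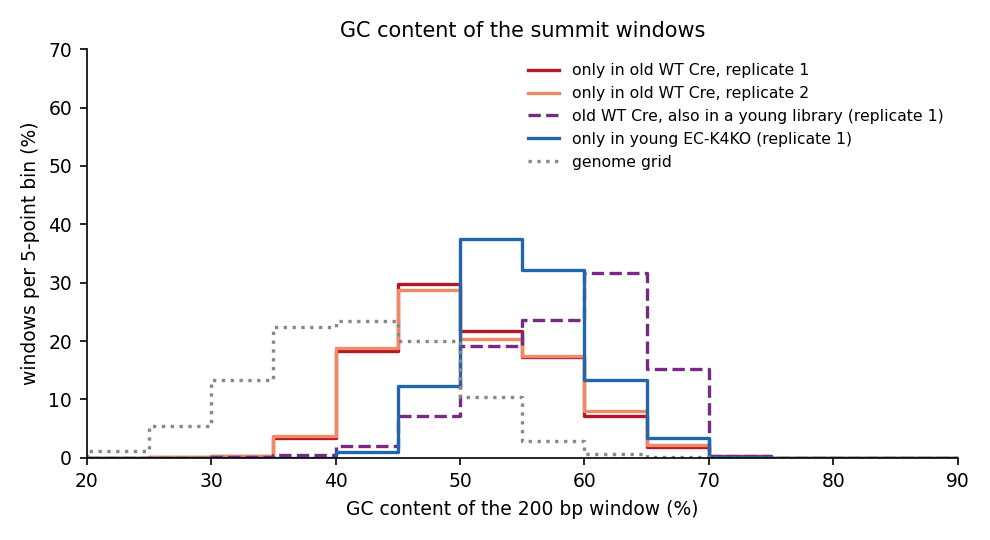
Share of windows (y axis, %) by GC content (x axis, bins of 5 percentage points) for members in each old WT Cre library, shared and young-only regions, and the genome grid. The members peak at 45 to 50% GC, below the shared regions and above the grid, with medians of 49.5, 59 and 41.5%.

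Repeated DNA was common in the members, and how far they fell below the shared regions depended on the measure. The measure was the share of 24-base words of a window that occur more than once in the assembly. Its mean was 57.0 and 57.6% in members of the 2 libraries, 74.2 and 74.6% in shared regions, 38.2 and 38.1% in regions of young EC-K4KO alone, and 21.2% in the grid. Members lay 17.1 points below shared regions (SD 0.160, n = 2, exact sign-flip permutation test, p = 0.5) and 19.2 points above young EC-K4KO alone (exact permutation test, p = 0.33). The second difference turned to −6.99 points without old WT Cre replicate 1 and −12.2 without old WT Cre replicate 2. By soft-masked bases the members held 70.2 and 71.0%, the shared regions 73.9 and 73.8% and the young-only regions 44.3 and 44.2%, a difference of −3.25 points from shared regions. With words of 31 bases that difference was −24.1 points. Windows made of unique words alone were 15.6 and 15.04% of the members, 10.6 and 10.7% of shared regions and 33.9 and 34.5% of young-only regions. Outside the CA-rich windows the members' mean was 44.2 and 44.95%, and without CA-rich windows in either set the differences were −29.2 points from shared regions and 6.43 points from young-only regions. Unbroken CA or TG tracts of 24 bp or more were found in 25.3 and 26.2% of members and GA tracts in 1.22 and 0.923%. The reference gives soft-masked bases but no repeat families, so elements such as LINEs were not named.

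Members were narrower than the shared regions and wider than young-only regions. Their peaks had median widths of 284 and 238 bp in replicates 1 and 2, and shared peaks 335 and 300 bp, a mean difference of −56.5 bp. Young-only peaks had medians of 202 and 207 bp, and all distal peaks of the old WT Cre pair 220 and 200 bp. The merged regions had a median width of 343 bp (174 to 1644 bp), and the 2 peaks of a member overlapped by a median of 189 bp. Of the 3773 members, 3752 held 1 peak of each library, and 14 overlapped by 10 bp or less. The summits lay within 50 bp of each other in 1689 members (44.8%). CA-rich members had a median width of 383 bp, and members that were CA-rich in neither library 316 bp. The 5 widest members were in Hhat (1644 bp), near Scube1 (1477 bp), near Zfp648 (1443 bp), in a stretch shared by Bend5 and Agbl4 (1405 bp) and in Cldn14 (1303 bp), and all 5 were CA-rich in both libraries.

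Pileups were low. A pileup is the number of fragments over the summit, and members had 13 to 137 in replicate 1 (median 23) and 8 to 71 in replicate 2 (median 14). The smallest pileups called anywhere in these lists were 13 and 8, so the weakest members sat at the limit of calling. Fold enrichment, the ratio of the pileup to nearby background, had medians of 4.32 and 5.22. Per 1000000 fragments the median pileup was 0.350 and 0.510, and across members the values of the 2 libraries had a Spearman rho of 0.323 and a Pearson r of 0.452 on a log scale, given as a description since members share libraries and GC content. Both q-values were at most 1e-05 in 1742 members (46.2%). CA-rich members had median pileups per 1000000 fragments of 0.396 and 0.546, and members that were CA-rich in neither library 0.335 and 0.473.

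**Figure D5:**
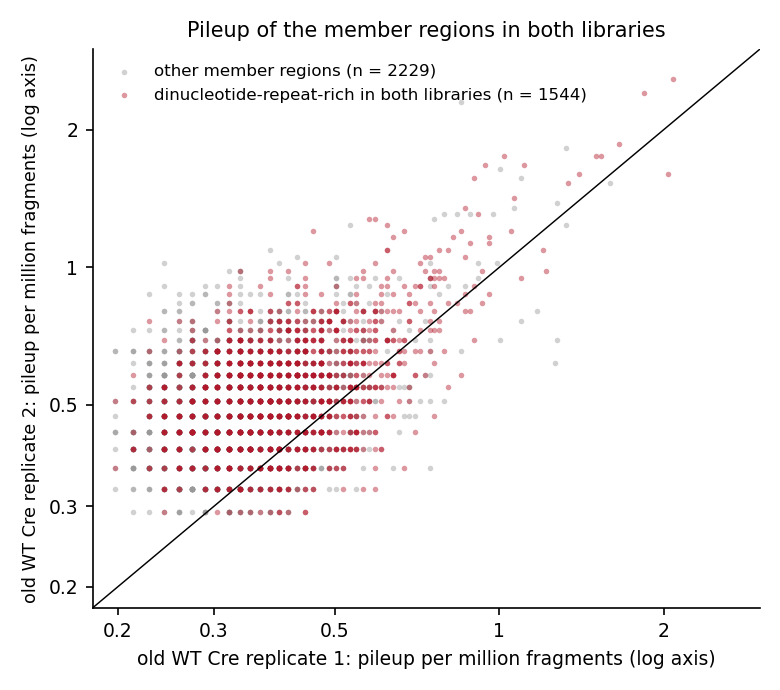
Pileup per 1000000 fragments of the 3773 members in old WT Cre replicate 1 (x axis) and replicate 2 (y axis), both on log axes, 1 point per member, with the line of equal values. Points form a grid because pileups are whole fragments, the 1544 members that were CA-rich in both libraries are red, and their medians are 0.396 and 0.546 against 0.335 and 0.473 for members that were CA-rich in neither.

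The rule rests on peak calls, so absence from the young EC-K4KO lists is not a measured absence of Pol II, and fewer cells with Pol II at a site and less Pol II per cell cannot be told apart. The smallest called pileup was 0.255 per 1000000 fragments in young EC-K4KO replicate 1 and 0.308 in replicate 2. In 3494 members both old WT Cre values reached the first and in 2555 the second. A peak of young EC-K4KO replicate 1 lay within 10000 bp of 994 members (26.3%), and one of replicate 2, the longest list, within 10000 bp of 3228 (85.6%). In 74 members a young peak lay within 100 bp, the closest touching the region, while 9 distal regions were left out for an overlap of at most 10 bp. At the TSS limit the nearest members lay 3005, 3009 and 3012 bp from a TSS, and the nearest old-only regions left out at 3000, 2979 and 2977 bp. In the 1000 bp beyond the limit there were 146 members, and in the 1000 bp before it 148 old-only regions.

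Members were spread over genes and the DNA between them. Of 3773 members, 1871 overlapped an annotated gene body, 49.6% (exact interval 48.0 to 51.2%). Of these, 226 touched an exon and 1645 lay in introns alone. By summit, the intragenic share was 49.6 and 49.5% in the 2 libraries, against 38.0 and 37.8% of shared regions (difference 11.7 points, SD 0.0625, n = 2, exact sign-flip permutation test, p = 0.5) and 41.6% of young-only regions in both libraries (7.94 points, exact permutation test, p = 0.33). The genome grid gave 45.3%. Of CA-rich members 48.3% were intragenic, against 50.2% for members that were CA-rich in neither library. Of all distal peaks 51.3 and 49.7% were intragenic in the old WT Cre pair and 43.6 and 50.7% in the young pair, so the share of members was close to that of the old WT Cre lists they came from. Without young EC-K4KO replicate 1 the difference between old-only and young-only regions turned to −2.64 points, while it was 1.58 points without young EC-K4KO replicate 2. The difference from shared regions was 7.73 points without old WT Cre replicate 2. The median distance to a TSS was 21808 bp, beside 22985 bp for shared and 22473 bp for young-only regions, and 356 members (9.44%) lay more than 100 kb from any TSS.

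Of the 2142 members outside protein-coding genes, 1006 lay downstream and 1136 upstream of the nearest one, at a median gap of 59826.5 bp. In the first 5 kb past a gene end, where Pol II terminates, there were 87, a count that was not set against other regions. The median gap to the nearest other member was 190544 bp, and 162 members (4.29%) had another within 10000 bp. Per Mb of assembled sequence the autosomes held 1.56 members, from 1.29 on chromosome 11 to 2.03 on chromosome 19. Chromosome X held 24 members, 0.147 per Mb, which is 0.0938 of the autosomal density. That ratio was 0.550 for shared regions and 0.238 for young-only regions. Over all distal peaks it was 0.230 and 0.308 for the old WT Cre pair and 0.191 and 0.577 for the young EC-K4KO pair, and the 2 young libraries were further apart than the groups. CA or TG tracts of 24 bp or more were also sparser on X, at 65.9 per Mb against 94.8 on the autosomes, a ratio of 0.695.

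The 10 members with the highest smaller −log10 q were mostly CA repeats, 7 of 10, and of the top 100 members 67 were CA-rich in at least 1 library. The strongest, chr8:110136288-110136756, lay 746 bp outside Calb2, the gene of the calcium-binding protein calretinin. Its pileups were 137 and 71 fragments in replicates 1 and 2, its fold enrichments 15.4 and 17.9, and its −log10 q 111 and 65.9. Second came chr15:90943092-90943665 in an intron of Kif21a, a kinesin motor gene, with pileups of 121 and 66. The third lay at chr9:50358148-50358658, 13180 bp from Rpl10-ps3, with pileups of 109 and 51. Their CA shares in replicate 1 were 86.4 and 91.0%.

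The Cdh6 member (chr15:14524404-14524946, pileups 87 and 50), the TCTA repeat shown above, lay 1350729 bp from that cadherin gene, its nearest protein-coding gene. The member nearest Cited2, a transcriptional coregulator (chr10:17383584-17384133), lay 339085 bp from that gene. Its pileups were 62 and 46 and its CA shares 86.4 and 84.4%. The Atrnl1 member (chr19:57926491-57926877) was not CA-rich, at 22.1 and 22.6%, and had pileups of 66 and 45. The Tmem132c member (chr5:126920248-126920560) lay 321248 bp from that gene, was 99.0 and 98.5% CA steps and had pileups of 134 and 44. The remaining 3 were near Mgat4a (chr1:37567440-37567620, pileups 59 and 43), in Srgap1 (chr10:121993979-121994735, 92 and 44) and in Csnk1a1 (chr18:61560134-61560310, 105 and 42). The first 2 were CA-rich, and the Csnk1a1 member, at 16.1%, was not. The young EC-K4KO peak nearest to any of the 10 lay 444 bp from the Cited2 member. Rank 11, 1918077 bp from Pik3c3, the gene of a lipid kinase, was made wholly of repeated words without being CA-rich, with pileups of 56 and 63 and a peak of young EC-K4KO replicate 1 at 74 bp.

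The share of genes that held a member rose with gene length. A member lay in the body of 1341 of 21755 protein-coding genes (6.16%), whose median length was 114 kb, against 17.4 kb for all. Genes under 10 kb held a member in 0.273% of cases, genes of 50 to 200 kb in 14.4% and genes above 500 kb in 63.5%, and the members per Mb of these classes were 0.566, 1.70 and 1.46. Counting also the nearest gene of the members between genes, 2716 genes (12.5%) were tied to a member. Fgfr2, a fibroblast growth factor receptor gene, headed the list with 11, but its annotated body spans 2961 kb and also holds 6 shared and 6 young-only regions. Gm20388, which spans 4435 kb, held 8. Hs6st3, a heparan sulfate sulfotransferase gene, and Gpc6, a glypican gene, held 7 each, of which 6 each were CA-rich in at least 1 library. St6galnac3, a sialyltransferase gene, and Ank3, the gene of ankyrin-G, held 6 each. Dym, Camk1d, Sox5 and Rbms3 held 5 each. Dym, at 268 kb the shortest of the 10, had the highest density, 1.86 per 100 kb, while Fgfr2 had 0.372.

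How often genes that hold a member had a promoter peak varied with the library. The host gene had a promoter peak for 37.5 and 36.7% of the 1631 members in protein-coding genes by the old WT Cre lists, and for 13.8 and 81.4% by the lists of young EC-K4KO replicates 1 and 2. For shared regions these shares were 41.0, 41.3, 22.3 and 78.2%. Counted by gene, 35.9, 35.3, 14.4 and 80.1% of the 1341 host genes had one in the 4 lists, against 25.8, 24.7, 10.7 and 68.1% of all protein-coding genes, which are shorter than the host genes.

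Genes of named functions, in lists compiled with earlier results of these data known, were looked up in 10 lists of 165 genes in all, of which 25 (15.2%) held a member, beside 6.16% of all protein-coding genes. The lists differ in gene length. Members per Mb were 5.02 in the senescence and inflammation list, 4.36 in the microglia and blood list, 4.10 in the brain endothelial list, 2.63 in the study-named list, 2.29 in vascular signalling and 1.70 in the mural list. The neuronal list had 1.29, and the astrocyte, oligodendrocyte, and junction and barrier lists had 0. Those above the value of all genes, 1.55 per Mb, rest on 1 to 8 members a list. Of 30 brain endothelial genes, 8 held a member (26.7%), with 1 each. They were Tek, the gene of the angiopoietin receptor TIE2, Ptprb, the transcription factor genes Erg and Lef1 (which acts in Wnt signalling), the tight junction genes Ocln and Tjp1, the transporter gene Slco1a4, and Vwf, the gene of von Willebrand factor. Their pileups were low, 16 to 28 in replicate 1 and 11 to 16 in replicate 2. Tek (chr4:94845299-94845672) had pileups of 21 and 13, Ptprb (chr10:116289471-116289820) 28 and 16, and Erg (chr16:95472388-95472727) 16 and 11. Tjp1 (chr7:65466319-65466548) had 27 and 15, with a young EC-K4KO replicate 1 peak 279 bp away. The Ocln member (chr13:100523123-100523557) had 18 and 16, with a young EC-K4KO replicate 2 peak at 163 bp. The Ptprb, Erg and Slco1a4 members were CA-rich in both libraries, and the other 5 were not.

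Among 22 vascular signalling genes, 3 held a member: Angpt2, the gene of the TIE2 ligand angiopoietin-2, which lies within Mcph1 at this site, Tgfbr2, a TGF-beta receptor gene, and Smad6, an inhibitor of BMP signalling. Their pileups were 17 and 15, 23 and 11, and 22 and 15 in replicates 1 and 2. Of 12 mural cell genes Notch3 held 1 (21 and 14). None of the 10 astrocyte genes or the 12 oligodendrocyte genes did. A list of 17 further junction and barrier genes held none either, but Ocln and Tjp1 were counted in the endothelial list, and Cldn14, a claudin gene with one of the widest members, was in no list. Of the 9 genes chosen from the study's text, Ocln and Mecom, a transcription factor gene, held 1 each, and the Mecom member (chr3:29990348-29990642, 24 and 14) was CA-rich. Of 24 senescence and inflammation genes, Rb1, the retinoblastoma gene, was alone with members and held 3, with pileups of 33 and 22, 22 and 27, and 19 and 11. None of the 3 was CA-rich. Counting the nearest gene instead, 9 of the 24 were tied to a member, beside 12.5% of all protein-coding genes. By that count the brain endothelial list had 12 of 30, vascular signalling 4 of 22, study-named 3 of 9 and neuronal 9 of 18. Junction and barrier had 3 of 17, astrocyte 3 of 10, mural 2 of 12, oligodendrocyte 1 of 12, and microglia and blood 1 of 13.

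Of 18 neuronal genes 9 held 19 members, but these genes have a median length of 444 kb, and their density was 1.29 per Mb. Among them were Cntnap2, Rbfox1, Rbfox3, Dlg2, Csmd1, Ptprd, Syt1 and Grin2a, most of them synaptic or RNA-binding protein genes. The member of highest rank among these lay in Dlg2 (chr7:91162848-91163499, pileups 47 and 20) and was CA-rich. The next, in Cntnap2 (chr6:47215201-47215389, 36 and 19), had CA shares of 43.7 and 45.7% and was not. One in Rbfox1 (chr16:7107274-7107480, 59 and 19), with the same smaller −log10 q of 10.7, was CA-rich. In the 13 microglial and blood genes, Itgam and Cx3cr1 held 1 each, at sites where another gene is annotated too. The lists were compared with all genes by counts alone, without a test.

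Short motifs differed in how they were spread over the sets. GGAAG on either strand, the ETS core, stood in 30.2 and 29.3% of members' windows, 60.4 and 59.6% of shared windows, 58.6 and 59.2% of young-only windows and 43.6% of the grid. In CA-rich members it stood in 6.17 and 6.21%, and in the other members in 48.6 and 47.6%. The longer CCGGAAG, which contains it, was found in 1.38 and 1.11% of members, 9.93 and 10.1% of shared regions, 3.91 and 3.72% of young-only windows and 0.516% of the grid. CCACNAGG, the core of the CTCF motif, was in 1.99 and 1.87% of members, 3.13 and 3.49% of shared windows, 5.39 and 5.51% of young-only windows and 1.96% of the grid. GGGNGNGGC, a KLF/Sp motif, was in 3.34 and 3.56% of members, 4.53 and 4.29% of shared windows, 6.06 and 6.63% of young-only windows and 2.29% of the grid. Without CA-rich windows the CCACNAGG shares were 3.36 and 3.26% of members and 3.33 and 3.75% of shared windows. Those of GGGNGNGGC were 5.56 and 6.19% of members and 4.88 and 4.59% of shared windows, so that the order of these sets turned. The AP-1 motif TGANTCA was in 1.93 and 1.82% of members, 1.28 and 1.32% of shared windows, 3.79 and 4.29% of young-only windows and 6.01% of the grid. The GATA motif AGATAA was in 3.36 and 3.61% of members, 3.52 and 3.12% of shared windows, 5.15 and 5.10% of young-only windows and 13.6% of the grid. Without CA-rich windows AGATAA was in 4.76 and 4.87% of members and 3.73 and 3.33% of shared windows. TGANTCA was then in 2.94 and 2.69% of members and 1.36 and 1.37% of shared windows. The NRF1 motif was rare in every set, at 1.75 and 1.85% of members, 1.08 and 1.20% of shared windows, 0.787 and 0.834% of young-only windows and 0.0781% of the grid. These are matches of letters and not bound sites.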

How the data were processed

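Pol II ChIP-seq peak lists of 4 libraries were analysed, and the other assays of the study were not used here. According to the study's methods, chromatin was cut with MNase, reads were trimmed, aligned to mm10 with Bowtie2 and freed of PCR duplicates, and the authors called peaks with MACS2. Per the file headers this was version 2.2.7.1 (the methods name another), run on each library alone with a q-value cutoff of 0.01, no control library and every duplicate in its input kept. Whether duplicates had been removed before that cannot be seen in the lists, and low pileups depend on it. Regions that gather reads in any library were not subtracted. The authors deposited for each peak a pileup (a coverage signal in fragments), −log10 of the p-value and q-value, and fold enrichment, a ratio over local background. None is normalized between libraries, and none gives a value where no peak was called.

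TSS and gene bodies came from GENCODE M21 basic and sequence from the RefSeq copy of GRCm38 (mm10). Python 3.11.15 was used (numpy 2.4.6, pandas 2.3.3, scipy 1.17.1, numba 0.67.0, matplotlib 3.10.9). Windows of 200 bp on summits gave GC content, 24-base words that recur in the assembly, CA content and motifs. Where a member held several peaks of a library, the one of smallest q gave its values. Members were compared with shared regions within each old WT Cre library (exact sign-flip permutation, two-sided), and with young-only regions by exact permutation of 2 libraries against 2. Neither can reach 0.05. Within these sets both libraries of a group are read over the same overlapping regions, so the SDs and p-values do not measure the spread between libraries. In the comparisons of all distal peaks and of tracts they do, and that spread may be technical.

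Members, gene lists and tests were chosen with earlier results of these data known, and the CA measure after the sequences were seen. The named members are the 10 of highest smaller −log10 q, the 5 with the most repeated words among the 100 of highest q, and the 5 widest. The named genes are the 10 with most members and every list gene that holds one, except for 1 that is not reported here. Region building, dinucleotide runs, CA content and counts of repeated words were tested on simulated data, and the other steps were not.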

Additional observations from a re-analysis of the deposited data

How the results depend on the processing

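None of the tests can pass 0.05, so only directions and sizes are given. Among the alternatives for the tested differences, 4 values reversed. The CA-rich share was examined after the data had been seen, and so were its alternatives and the omission of CA-rich windows.

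The number of members was 2006 with q at most 1e-05 in all lists, 2293 with fold enrichment of at least 4, and 4120 to 46903 with 1 library left out. It was 46903 without old WT Cre replicate 2, 19269 without old WT Cre replicate 1 and 5874 without young EC-K4KO replicate 2. Against shared regions, the GC difference was −10 to −3.75 points with 1 library left out, and the difference in repeated words was −3.25 points by soft-masked bases, −24.1 points with 31-base words and −29.2 points without CA-rich windows. Against young-only regions, the GC difference ranged from −3.5 to 0.75 points with 1 library left out and turned positive without young EC-K4KO replicate 2. The intragenic difference ranged from −2.64 to 12.9 points and turned negative without young EC-K4KO replicate 1. The difference in repeated words ranged from −12.2 to 37.5 points and was −6.99 without old WT Cre replicate 1 and −12.2 without old WT Cre replicate 2. The cause of these reversals was not tested. The width difference from shared regions was −87.5 bp with the stricter q, −69.75 bp with the fold minimum, −94 bp with lists of equal length, −45 bp with no young peak within 1000 bp, and −100.5 to −40 bp with 1 library left out.

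The CA-rich difference kept its sign throughout. With 1 library left out it was 5.55 to 35.1 points against shared regions and 8.18 to 41.5 points against young-only regions, lowest without old WT Cre replicate 2 in both. The share of members' windows with the ETS core was 15.2% in windows of 100 bp, and 46 of the 165 list genes (27.9%) were the nearest gene of a member, with 1 gene taken where several overlap, beside 2716 of 21755 protein-coding genes (12.5%).

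With the replicate number as a block, the differences from young-only regions were −5 points for GC content, 7.94 for intragenic share, 19.2 for repeated words and 43.7 for CA-rich share, each at an exact p of 0.5, the smallest possible with 2 pairs. With balanced pairs these values equal those without the replicate block by construction, and the labels do not say that the numbers pair the libraries.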

Other observations

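TG stood on the coding strand in 351 of 634 CA-rich members that lie in 1 protein-coding gene (55.4%, exact 95% interval 51.4 to 59.3%), beside 46846 of 84345 distal CA or TG tracts in 1 protein-coding gene (55.5%). The RefSeq annotation holds 1015 enhancer records. Of 3773 members 4 overlapped one, as did 5 of 4034 shared regions and 4 of 4185 young-only regions. The share over all distal peaks was not taken. The 4 members lay nearest Abca4, Slc2a3, Sec61g and Tcp11, and the Sec61g member was CA-rich in both libraries.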
